A study of Mus musculus with 12 samples.

Results

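Retinal ganglion cell genes (Rbpms, Sncg, Nefl, Nefm, Nefh, Thy1, Pou4f1, Pou4f2 and Pou4f3) and the growth cone gene Gap43 were followed in mouse retina after oxygen-induced retinopathy (OIR). The 10 genes were taken by symbol from a table of 36131 genes, and each symbol matched 1 row. All 10 were among the 16688 genes that passed the filter on low counts. Retinas of C57BL/6J wildtype mice were sequenced at postnatal day (P) 18, 1 library per animal and 4 animals per group. Animals 1 to 4 stayed in room air and received the PBS placebo (RA-PBS). Animals 5 to 8 were exposed to 75% O2 from P7 to P12 and received PBS (O2-PBS). Animals 9 to 12 had the same O2 exposure and received IC100, a humanized antibody against the inflammasome adaptor ASC, at 10 µg/g into the peritoneum on P12, P14 and P16 (O2-IC100). The labels give PBS the same days and route, while the study's text speaks of PBS injected into the eye, and room air with IC100 was not among these 12 libraries.

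Ganglion cells are the output neurons of the retina, and their axons form the optic nerve. The transcription factors Pou4f1, Pou4f2 and Pou4f3 (Brn3a, Brn3b and Brn3c) specify and maintain ganglion cells, with Pou4f2 acting early in the lineage, and the RNA-binding protein Rbpms is a marker shared by nearly all ganglion cell types. Neurofilament light, medium and heavy chains (Nefl, Nefm, Nefh) assemble into the filaments that set axon calibre, gamma-synuclein (Sncg) and the surface glycoprotein Thy1 are abundant in ganglion cells, and Gap43 is a calmodulin-binding protein of growing axon tips. In whole retina, fewer ganglion cells and less RNA per ganglion cell cannot be told apart. Horizontal cells also carry neurofilaments and some amacrine cells express Gap43, so these RNAs need not all come from ganglion cells. The cell source of Rbpms and the other members was not measured in these whole-retina libraries.

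Total counts were 14907143 to 19146287 in 11 retinas and 24438082 in O2-IC100 animal 10, in which 18 lens genes (crystallins and lens membrane genes) took 57.7% of all counts. The test therefore held 11 retinas, and results with all 12 are given beside each comparison. Lens genes also differed among the rest, from 10.0 to 45247 CPM (counts scaled to the normalized library size) in RA-PBS, 5.44 to 123 in O2-PBS and 15.9 to 57.1 in the 3 other O2-IC100 retinas. The 7 myelin genes of oligodendrocytes, the glia of the optic nerve, summed to 6074 CPM in RA-PBS animal 4 against 60.6 to 72.4 CPM in the other 10 retinas of the fit, and to 609 CPM in animal 10. The 10 rod genes summed to 39497 to 47533 CPM in the 11 retinas, with overlap of the 3 groups. The part of lens or optic nerve tissue in the results was not tested.

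Levels per kilobase of the longest annotated transcript, in CPM per kb, put Nefl first in RA-PBS at 177 ± 35.4 (SD, n = 4), then Thy1 at 125 ± 24.8 and Sncg at 98.1 ± 29.3. Nefm followed at 48.3 ± 7.03, Nefh at 37.7 ± 5.58 and Gap43 at 26.7 ± 8.22. Rbpms was at 11.6 ± 0.930 and Pou4f1 at 7.39 ± 0.745, and Pou4f2 and Pou4f3 were lowest at 2.93 ± 0.895 and 2.58 ± 0.800 CPM per kb. The level of Rbpms, taken over 2547 bases, and its place in the order depend on the transcript chosen. Of its 15 annotated transcripts, the one with the longest coding part has 1039 bases. In RA-PBS the ranges of neighbours overlapped for Nefl and Thy1, Thy1 and Sncg, Nefm and Nefh, Nefh and Gap43, and Pou4f2 and Pou4f3. The same order held in O2-PBS. In O2-IC100 without animal 10, Gap43 stood above Nefh, at 28.7 ± 2.15 against 22.7 ± 0.895 CPM per kb (SD, n = 3), and the ranges of the pair did not overlap. Counts behind these levels in the 11 retinas ran from 5756 to 11856 for Nefl and from 62.0 to 147 for Pou4f3, the gene with the fewest counts.

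Promoter sequence was at hand for 3 of the 10 genes, Sncg, Pou4f1 and Pou4f2, as 300 bases around the start of transcription (RefSeq, GRCm38.p6, 250 bases before and 50 after, written 5′ to 3′ on the gene's strand). They are shown because Sncg stood far above the Brn3 factors in level while none of the 3 genes passed the thresholds in any comparison. Capitals mark matches, on either strand, to 5 motifs searched. The E-box, bound by basic helix-loop-helix factors, was searched as CANNTG and the GC box as GGGCGG. The homeodomain core was searched as TAATTA. The TATA box was searched as TATAAA. The remaining motif was the CCAAT box.
Sncg, chr14:34374620-34374919 (-): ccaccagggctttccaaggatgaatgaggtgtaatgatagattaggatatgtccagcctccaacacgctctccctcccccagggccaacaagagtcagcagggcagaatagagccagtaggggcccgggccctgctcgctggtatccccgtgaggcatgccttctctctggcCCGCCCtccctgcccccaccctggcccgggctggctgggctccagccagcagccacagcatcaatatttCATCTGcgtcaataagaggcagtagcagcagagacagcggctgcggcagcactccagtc
Pou4f1, chr14:104467950-104468249 (-): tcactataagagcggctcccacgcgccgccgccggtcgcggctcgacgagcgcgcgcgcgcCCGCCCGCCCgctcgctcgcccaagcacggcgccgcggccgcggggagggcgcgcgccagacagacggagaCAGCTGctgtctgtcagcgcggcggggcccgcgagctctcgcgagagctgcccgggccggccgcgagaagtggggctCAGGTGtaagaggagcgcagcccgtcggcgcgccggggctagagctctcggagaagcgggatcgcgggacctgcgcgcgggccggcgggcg
Pou4f2, chr8:78436598-78436897 (-): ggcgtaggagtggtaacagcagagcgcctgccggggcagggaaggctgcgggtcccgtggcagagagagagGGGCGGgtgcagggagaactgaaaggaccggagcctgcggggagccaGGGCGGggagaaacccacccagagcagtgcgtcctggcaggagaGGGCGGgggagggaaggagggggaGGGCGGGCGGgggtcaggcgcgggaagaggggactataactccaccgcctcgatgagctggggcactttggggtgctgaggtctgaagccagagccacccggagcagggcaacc
The Sncg window held 1 E-box and 1 GC box, the Pou4f1 window 2 E-boxes and 2 overlapping GC boxes, and the Pou4f2 window 5 GC boxes, the last pair overlapping. None held a homeodomain core, CCAAT box or TATA box in these letters. Of 32851 mouse windows of this length, 72.3% held an E-box, 35.7% a GC box, 37.4% a CCAAT box, 13.6% a TATA box and 5.29% a homeodomain core. GC content was 61.3% for Sncg, 78.3% for Pou4f1 and 69.7% for Pou4f2.

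Sequence shared between genes bears on how reads were divided among them, and was counted as words of 31 bases, the default word length of Kallisto, in the GENCODE vM21 transcripts. No word of Nefh occurred in another gene. For Nefl, 1078 of its 3350 words of 31 bases (32.2%) also occurred on the opposite strand of a second Nefm transcript of 3680 bases, over Nefl bases 1 to 1108. Whether the counting used strand is not given in the sources used here, so reads from that stretch may have been divided between Nefl and Nefm. Pou4f1 and Pou4f2 shared 61 words, Pou4f1 and Pou4f3 11, and Pou4f2 and Pou4f3 5. Rbpms, Sncg, Thy1 and Gap43 shared none with another gene. These counts are for the transcript of each gene with the longest coding part.

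To see how ganglion cell genes differed after O2, O2-PBS was compared with RA-PBS. Nefl fell by 0.62 on the log2 scale, to 65.1% of its RA-PBS level, and was the only member past all thresholds (a fold change of at least 1.5, p under 0.05 and adjusted p under 0.1). Nefm, Nefh and Thy1 fell too, to 70.6%, 71.6% and 75.2%, below the fold minimum. Rbpms and Pou4f2 had values near those of RA-PBS, at 102% and 95.8%. Thus 1 of 10 genes was called, where 6.27% of all 16688 tested genes were called in either direction, 2.18% lower and 4.09% higher. With no minimum fold, 4 of 10 passed, all lower, against 6.42% of all genes. Log2 fold changes were below 0 for 9 of 10 genes (51.2% of all genes), with a median of -0.41 over the 10 and -0.0066 over all genes.

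**Figure D1:**
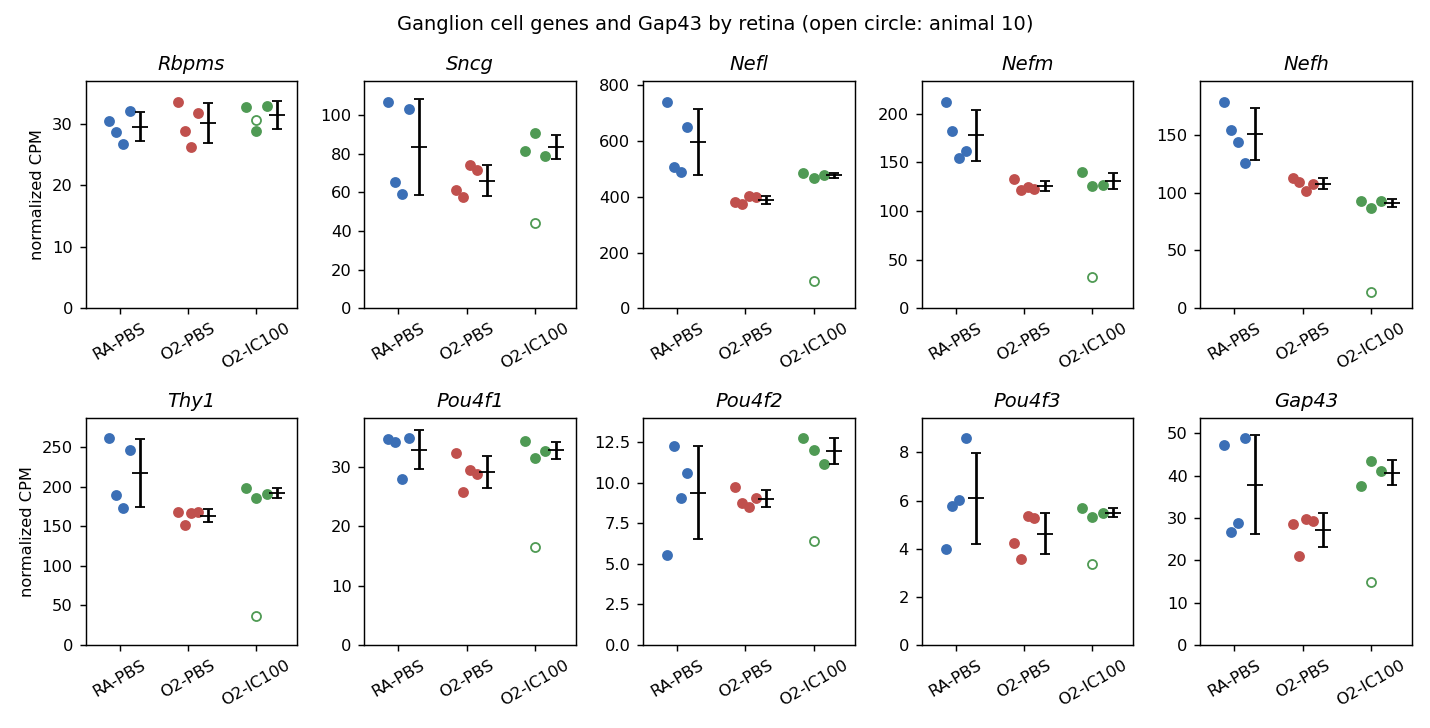
Normalized CPM of each gene (y axis, from 0) in the 12 retinas by group (x axis). Each filled circle is a retina, the open circle is O2-IC100 animal 10, and the bar gives the mean ± SD of the filled circles (n = 4, 4 and 3). Nefl, Nefm, Nefh and Thy1 of the 4 O2-PBS retinas all lie below the 4 RA-PBS retinas, and animal 10 is the lowest retina for every gene but Rbpms and Pou4f2.

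Nefl, the light chain that all neurofilaments need, had 741, 508, 489 and 649 normalized CPM in RA-PBS animals 1 to 4, and 382, 373, 401 and 398 CPM in O2-PBS animals 5 to 8. Every O2-PBS retina was below every RA-PBS retina, and the RA-PBS animals 1 and 4 stood above 2 and 3. The group means were 597 ± 120 and 388 ± 13.4 CPM (SD, n = 4 each), and edgeR's quasi-likelihood test gave a log2 fold change of -0.62 (SE 0.119, adjusted p = 0.00659).

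Nefm, the medium chain, measured 213, 182, 155 and 162 CPM in RA-PBS and 133, 122, 125 and 123 CPM in O2-PBS. Nefh, the heavy chain added as axons mature, measured 179, 154, 144 and 125 CPM in RA-PBS and 113, 109, 102 and 108 CPM in O2-PBS. For both chains the groups did not overlap, and unlike Nefl they were lower in RA-PBS animal 4 than in animal 2. The log2 fold changes were -0.50 for Nefm (SE 0.0963, edgeR adjusted p = 0.0065) and -0.48 for Nefh (SE 0.0960, adjusted p = 0.00827). Nefl and Nefm summed, which no division of reads between the pair can move, were at 775 ± 138 CPM in RA-PBS and 514 ± 13.5 CPM in O2-PBS, a ratio of means of 0.664.

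Thy1, a surface glycoprotein of ganglion cells that T cells also carry, had 261, 189, 173 and 246 CPM in RA-PBS and 168, 152, 167 and 168 CPM in O2-PBS. The groups did not overlap, though the lowest RA-PBS retina was close to the highest O2-PBS retinas. The log2 fold change was -0.41 (SE 0.117, edgeR adjusted p = 0.0462). The T cell genes Cd3d, Cd3e and Cd3g and the general leukocyte gene Ptprc summed to at most 5.70 CPM in any of these 11 retinas. Ptprc alone had 3.91 CPM in the retina with that sum, O2-PBS animal 5. With Nefl, Nefm and Nefh, Thy1 made 4 of 10 genes whose O2-PBS values all lay below RA-PBS, where 6.48% of all genes did.

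Gap43, the growth cone protein, measured 47.1, 26.7, 28.9 and 48.8 CPM in RA-PBS and 28.5, 21.1, 29.9 and 29.3 CPM in O2-PBS. RA-PBS animals 1 and 4 were high, and animals 2 and 3 lay among the O2-PBS values. The log2 fold change of -0.48 (SE 0.186) was as large as that of Nefh but did not pass (edgeR adjusted p = 0.142). Sncg showed the same split, with 107, 65.4, 58.9 and 103 CPM in RA-PBS and 61.1, 57.6, 74.2 and 71.6 CPM in O2-PBS, and a log2 fold change of -0.34 (SE 0.173, adjusted p = 0.280).

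The Brn3 factors and Rbpms, like Gap43 and Sncg, did not pass the test. Pou4f1 had 34.6, 34.2, 27.9 and 34.7 CPM in RA-PBS and 32.2, 25.7, 29.4 and 28.8 CPM in O2-PBS, with overlap (log2 fold change -0.18, SE 0.0978, edgeR adjusted p = 0.315). Pou4f2 had 5.56, 12.3, 9.10 and 10.6 CPM in RA-PBS and 9.74, 8.78, 8.5 and 9.06 CPM in O2-PBS (-0.06, SE 0.192, adjusted p = 0.882). Its RA-PBS animal 1 was below all other retinas of the fit. Pou4f3 had 4.00, 5.77, 6.04 and 8.58 CPM against 4.24, 3.58, 5.38 and 5.26 CPM (-0.40, SE 0.220, adjusted p = 0.314). Rbpms had the smallest fold change, with 30.5, 28.7, 26.7 and 32.2 CPM in RA-PBS and 33.6, 28.8, 26.3 and 31.8 CPM in O2-PBS (0.03, SE 0.0998, adjusted p = 0.891). Within a retina, the ratio of Nefl to Rbpms counts was 24.3, 17.7, 18.3 and 20.2 in RA-PBS and 11.3, 12.96, 15.3 and 12.5 in O2-PBS, without overlap. The ratio of Gap43 to Rbpms overlapped, at 0.933 to 1.55 in RA-PBS and 0.733 to 1.14 in O2-PBS. So did that of Sncg to Rbpms, at 2.21 to 3.51 and 1.82 to 2.82. These ratios were not tested, and the share of all genes without overlap in such a ratio was not computed.

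**Figure D2:**
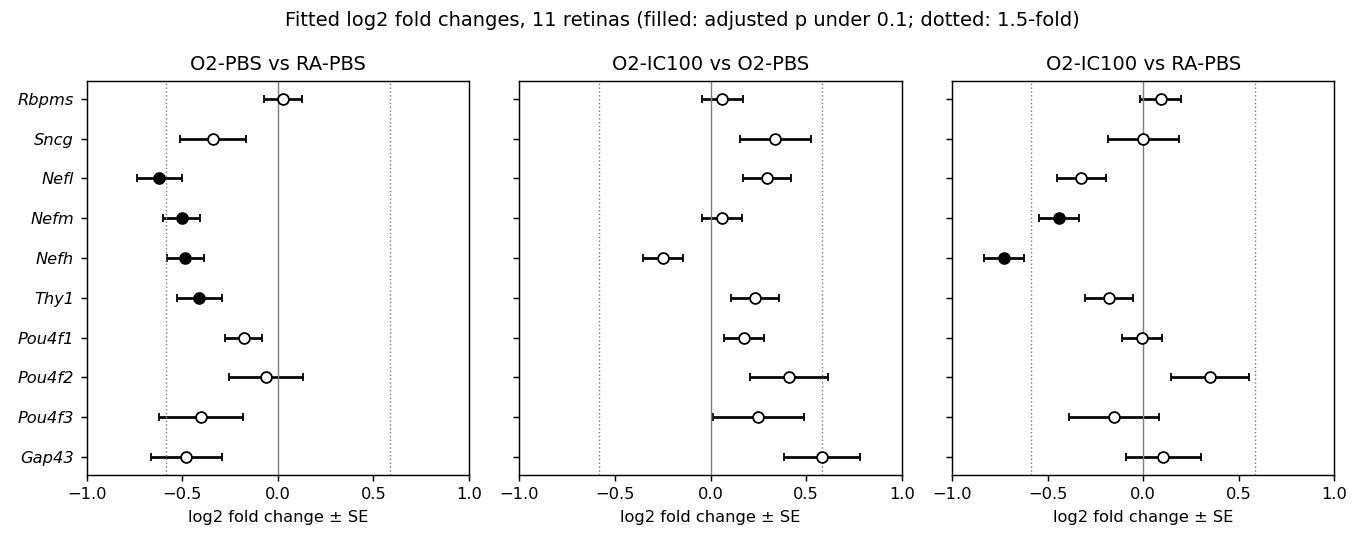
Fitted log2 fold change of each gene (x axis, circles, with bars of 1 SE) in the 3 comparisons of the 11 retinas. Filled circles have an edgeR adjusted p under 0.1, and dotted lines mark a 1.5-fold change. Nefl at -0.62 lies past the line in O2-PBS against RA-PBS and Nefh at -0.73 in O2-IC100 against RA-PBS.

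The split of RA-PBS retinas ran with a difference between short and long genes, whose part in the results was not tested. The median log2 deviation of 4126 short genes (at most 2164.5 bases) minus that of 4126 long genes (at least 4821 bases) was 0.16, -0.33, -0.19 and 0.29 in RA-PBS animals 1 to 4. It was -0.22, -0.10, 0.0011 and -0.0097 in O2-PBS animals 5 to 8, and 0.16, 0.17 and 0.14 in O2-IC100 animals 9, 11 and 12. Animals 1 and 4 of RA-PBS thus had more counts from short genes, as did the 3 O2-IC100 retinas. After adjusting for each gene's length and GC content, an alternative added after seeing the data, 2 genes were called in O2-PBS against RA-PBS, Nefl at -0.71 (SE 0.123, edgeR adjusted p = 0.00263) and Nefm at -0.59 (SE 0.104, adjusted p = 0.00287), where 7.42% of all genes were. Gap43 then had -0.52 (SE 0.170, adjusted p = 0.0630) and Nefh -0.56 (SE 0.0994, adjusted p = 0.00284), both short of the fold minimum.

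When animal 10 was kept in the fit, the fold changes of O2-PBS against RA-PBS were close to those above, at -0.62 for Nefl and -0.48 for Nefh, while the SE of Nefl was 0.389 in place of 0.119 and edgeR called 0 of 10 genes (0.807% of 16489 tested genes). The edgeR adjusted p of Nefl was 0.954, and 0 of 10 genes had an unadjusted p under 0.05, against 7.12% of all genes. Nefl was below the fold minimum without RA-PBS animal 1, at -0.50 (adjusted p = 0.00873), and without RA-PBS animal 4, at -0.58 (adjusted p = 0.0121). Without RA-PBS animal 2, Gap43 was called as well, at -0.61 (adjusted p = 0.0356). Y-linked genes, whose sums are given below, were high in RA-PBS animals 1 to 3 but only in animal 8 of O2-PBS. Sex is not in the labels, and its part in O2-PBS against RA-PBS cannot be fully told apart from that of O2. With Y-linked expression as a covariate, edgeR called 1 of 10 genes here, where 5.21% of all genes were called.

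To see how the groups differed after O2, O2-IC100 was compared with O2-PBS. Y-linked genes (Ddx3y, Eif2s3y, Kdm5d and Uty) summed to 315, 358 and 362 CPM in O2-IC100 animals 9, 11 and 12. In animal 10 the sum was 4.66 CPM. The sums were 8.75, 10.9, 9.19 and 254 CPM in O2-PBS animals 5 to 8. They were 259, 299, 246 and 6.25 CPM in RA-PBS animals 1 to 4. Sex is not in the labels, and its part in this comparison cannot be fully told apart from that of IC100. None of the 10 genes passed the thresholds (0.947% of all genes were called), and 3 of 10 had an unadjusted p under 0.05 in edgeR, against 19.2% of all genes. With Y-linked expression as a covariate, edgeR called 0 of 10, where 0.234% of all genes were called. DESeq2 and limma voom called 0 of 10 as well, where they called 2.64% and 0.821% of genes. Of the 10 genes, 9 had a log2 fold change above 0 and 1 below 0 (49.5% of all genes), with a median of 0.24 over the 10 and 0.0040 over all genes. Glial genes moved in the same comparison, with all 8 Müller cell genes higher (median 0.32, 1 called) and all 11 reactive glia genes lower (median -1.03, 4 called), and their part in the members' values was not tested. In the 3 O2-IC100 retinas without animal 10, Gap43, Pou4f2, Sncg, Nefl and Thy1 were above all 4 O2-PBS retinas (5 of 10, against 19.4% of all genes), and Nefh was below all of them (1 of 10, against 16% of all genes).

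Gap43 measured 37.5, 43.5 and 41.2 CPM in O2-IC100 animals 9, 11 and 12 and 14.8 CPM in animal 10, beside 21.1 to 29.9 CPM in O2-PBS. Its log2 fold change of 0.58 (SE 0.199) fell barely short of the fold minimum, and its edgeR adjusted p was 0.178. DESeq2 gave 0.57 (SE 0.204, adjusted p = 0.0857). Without RA-PBS animal 4, which is in neither of these groups but enters the shared estimate of spread, Gap43 was called at 0.59 (edgeR adjusted p = 0.0738). With animal 10 the value was 0.32 (adjusted p = 0.589).

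Nefl had 484, 466 and 479 CPM in O2-IC100 animals 9, 11 and 12, above the 4 O2-PBS retinas and below the 4 RA-PBS retinas, and 99.2 CPM in animal 10. Its log2 fold change against O2-PBS was 0.29 (SE 0.128, edgeR adjusted p = 0.241), and -0.04 (adjusted p = 0.961) with animal 10. Pou4f2 had 12.8, 12.1 and 11.2 CPM (0.41, SE 0.204, adjusted p = 0.281) and 6.40 CPM in animal 10. Sncg had 81.2, 90.8 and 78.8 CPM (0.34, SE 0.185, adjusted p = 0.322) and 44.2 CPM in animal 10. Thy1 had 198, 186 and 191 CPM (0.23, SE 0.126, adjusted p = 0.321) and 36.4 CPM in animal 10.

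Nefh went the other way, with 93.0, 86.7 and 92.8 CPM in O2-IC100 animals 9, 11 and 12, below every O2-PBS retina, and 14.4 CPM in animal 10. The log2 fold change was -0.25 (SE 0.104, unadjusted p = 0.0335, edgeR adjusted p = 0.234). Nefm had 141, 125 and 126 CPM, overlapping O2-PBS (0.06, SE 0.104, adjusted p = 0.771), and 32.6 CPM in animal 10. Pou4f1 had 34.2, 31.4 and 32.6 CPM and 16.4 CPM in animal 10 (0.17 without that animal, SE 0.105, adjusted p = 0.365). Pou4f3 had 5.69, 5.31 and 5.47 CPM and 3.35 CPM in animal 10 (0.25 without that animal, SE 0.237, adjusted p = 0.563). Rbpms had 32.7, 28.8 and 32.8 CPM (0.06 without animal 10, SE 0.107, adjusted p = 0.767). At 30.7 CPM in animal 10, Rbpms was the member that this lens-rich retina moved least.

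In a fit of only O2-PBS and the 3 O2-IC100 retinas, 6 of 10 genes had an adjusted p under 0.1 with no minimum fold, against 34% of all genes. These were Gap43 at 0.57 (edgeR adjusted p = 0.00258), Pou4f2 at 0.40 (0.0217), Sncg at 0.33 (0.0159), Nefl at 0.28 (0.00271), Thy1 at 0.22 (0.0123) and Nefh at -0.26 (0.00579). RA-PBS, which had the largest coefficient of variation of the 3 groups for 9 of 10 genes (all but Rbpms), was absent from that estimate of spread. None of the 6 reached the fold minimum. With all 12 retinas in 1 fit, edgeR called 0% of all genes between O2-IC100 and O2-PBS and 0 of 10 members, and 0 of 10 had an unadjusted p under 0.05, against 16.9% of all genes.

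**Figure D3:**
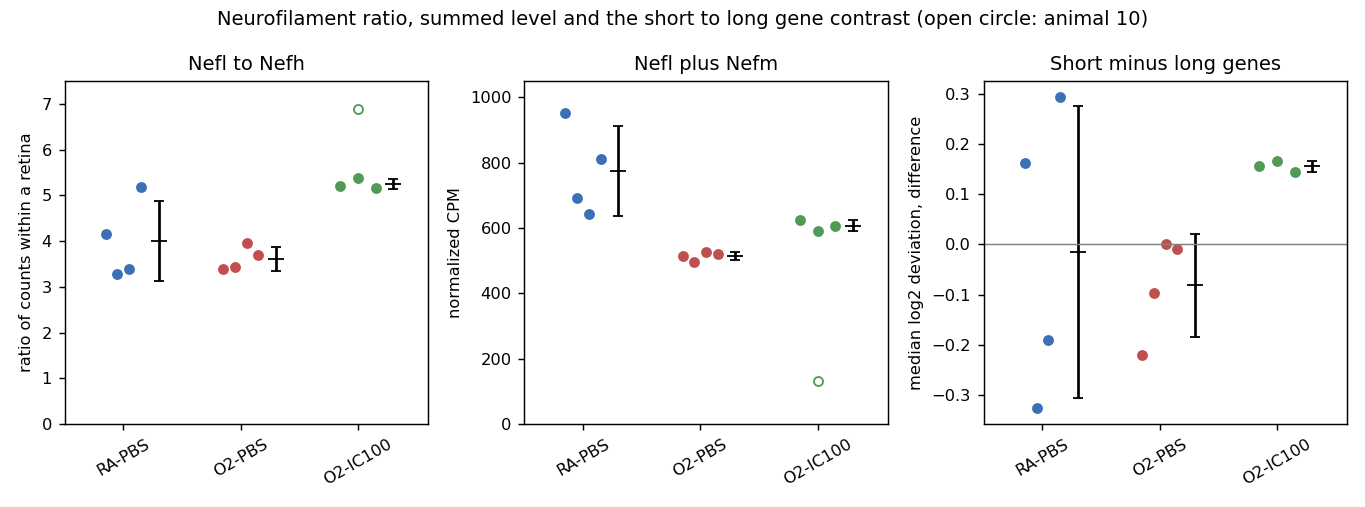
Left, ratio of Nefl to Nefh counts within each retina. Middle, summed normalized CPM of Nefl and Nefm. Right, median log2 deviation of short minus long genes. Filled circles are retinas, bars are mean ± SD without animal 10 (n = 4, 4 and 3), and the open circle is animal 10, not computed on the right. The 3 O2-IC100 retinas sit at 5.17 to 5.37 for the ratio, above the O2-PBS retinas at 3.38 to 3.95, and at 0.14 to 0.17 for short minus long genes.

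The ratio of Nefl to Nefh counts needs no scaling between libraries. It was 4.15, 3.29, 3.39 and 5.18 in RA-PBS, 3.38, 3.42, 3.95 and 3.70 in O2-PBS, and 5.21, 5.37 and 5.17 in O2-IC100 animals 9, 11 and 12. O2-IC100 did not overlap O2-PBS, while RA-PBS animal 4 was within the O2-IC100 range. Animal 10 had 6.89, from 682 Nefl and 99.0 Nefh counts. The ratio of Nefm to Nefh was 1.36 to 1.51 in the 3 O2-IC100 retinas, above the 1.12 to 1.22 of O2-PBS and the 1.07 to 1.29 of RA-PBS. The ratios were chosen after their values were seen and were not tested. Nefl is shorter than Nefh and has a lower GC content, 48.8% against 58.4%. The length and GC correction takes both together. With it, Nefh stood at -0.11 (SE 0.108, edgeR adjusted p = 0.621) and Gap43 at 0.54 (SE 0.181, adjusted p = 0.204) in O2-IC100 against O2-PBS.

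O2-IC100 was also set against RA-PBS, using the libraries of both comparisons above. Nefh was the only member called. It stood at 60.3% of RA-PBS, with a log2 fold change of -0.73 (SE 0.105, edgeR adjusted p = 0.0102), and the groups did not overlap. This is 1 of 10 genes, where 1.56% of all genes were called. Nefm was lower with no minimum fold, at 73.5% (-0.44, SE 0.105, adjusted p = 0.0705), so 2 of 10 genes passed that rule downward, against 1.31% of all genes. Nefm did not pass with the length and GC correction (adjusted p = 0.113), with library size only (adjusted p = 0.104), with only the 2 groups (adjusted p = 0.264) or without animal 2, 6, 7, 8, 9, 11 or 12 in turn. Nefl was at 79.9% (-0.32, SE 0.129, adjusted p = 0.242), and its 3 O2-IC100 values lay below all 4 RA-PBS values, which made 3 of 10 genes with no overlap downward, against 4.92% of all genes.

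None of the other 7 members passed in this comparison. Sncg had a log2 fold change of 0.00051 (SE 0.185), Pou4f1 -0.0056 (SE 0.105), Rbpms 0.09 (SE 0.107), Gap43 0.11 (SE 0.198), Pou4f3 -0.15 (SE 0.235), Thy1 -0.18 (SE 0.127) and Pou4f2 0.35 (SE 0.203), with edgeR adjusted p from 0.437 to 0.999. Of the 10 genes, 6 were below 0 (47.5% of all genes), with a median of -0.08 over the 10 and 0.02 over all genes. The intervals of Sncg, Gap43, Pou4f2 and Pou4f3 are wide, so the values do not show that these genes were alike in both groups. With all 12 retinas, edgeR called 0 of 10 members and 0% of all genes, Nefh was at -1.08 (adjusted p = 0.374), and 2 of 10 members had an unadjusted p under 0.05, against 13.2% of all genes. DESeq2 on 12 retinas called 0 of 10 members and 279 genes. In a fit of only these groups Nefh was at -0.74 (adjusted p = 0.106).

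Other ganglion cell genes were mostly lower in O2-PBS. Of 20, 16 were lower and 4 higher than in RA-PBS, with a median of -0.32, and 3 fell and 1 rose past the thresholds. Over all genes 51.2% were lower, 2.18% were called lower and 4.09% higher. The 4 calls became 1 without RA-PBS animal 1, without O2-PBS animal 7 or with the Y-linked covariate, and 2 without O2-PBS animal 5 or 6, with upper quartile or library size scaling, or with only the 2 groups. Without RA-PBS animal 3 there were 6. The nicotinic acetylcholine receptor subunits Chrna6 and Chrnb3 fell by 0.89 and 0.63 on the log2 scale (SE 0.161 and 0.153, edgeR adjusted p = 0.00464 and 0.0232), and the neurite growth factor Nrn1 by 0.59 (SE 0.186, adjusted p = 0.0689). Chrna6 measured 147, 103, 82.3 and 151 CPM in RA-PBS, 60.0 to 75.4 CPM in O2-PBS and 100 to 103 CPM in O2-IC100 animals 9, 11 and 12. The transcription factor Sox11, a gene of young neurons, measured 2.81 to 5.78 CPM in RA-PBS and 5.81 to 7.38 CPM in O2-PBS (0.68, SE 0.211, adjusted p = 0.0662). All 10 markers of ganglion cell subtypes were lower (median -0.20), and 2 were called, the neuropeptide gene Cartpt at -0.79 (SE 0.155, adjusted p = 0.00739) and osteopontin, Spp1, of alpha cells at -0.72 (SE 0.153, adjusted p = 0.0119).

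Relatives of the members by function were counted next, with Tubb3 and Stmn2 also in the ganglion cell list above. Of 18 neuronal cytoskeleton and related genes, 14 were lower (median -0.29) and 3 were called lower (2.18% of all genes), among them the microtubule regulator Stmn3 at -0.64 (SE 0.176, edgeR adjusted p = 0.0404) and the dynein chain Dync1i1 at -0.63 (SE 0.137, adjusted p = 0.0126). Alpha-internexin, Ina, the filament partner of the neurofilaments, stood at -0.33 (SE 0.105, adjusted p = 0.0721), and peripherin, Prph, at 0.41 (SE 0.204, adjusted p = 0.273). The 3 calls became 0 without RA-PBS animal 1, and 1 without O2-PBS animal 6 or with library size scaling. Of 16 growth cone and calmodulin-binding genes akin to Gap43, 13 were lower (median -0.31). The calmodulin-binding Pcp4 was called, at -0.83 (SE 0.167, adjusted p = 0.00886). Stmn3 and Pcp4 showed the RA-PBS split of animals 1 and 4 above 2 and 3, with 205, 114, 118 and 203 CPM for Stmn3.

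**Figure D4:**
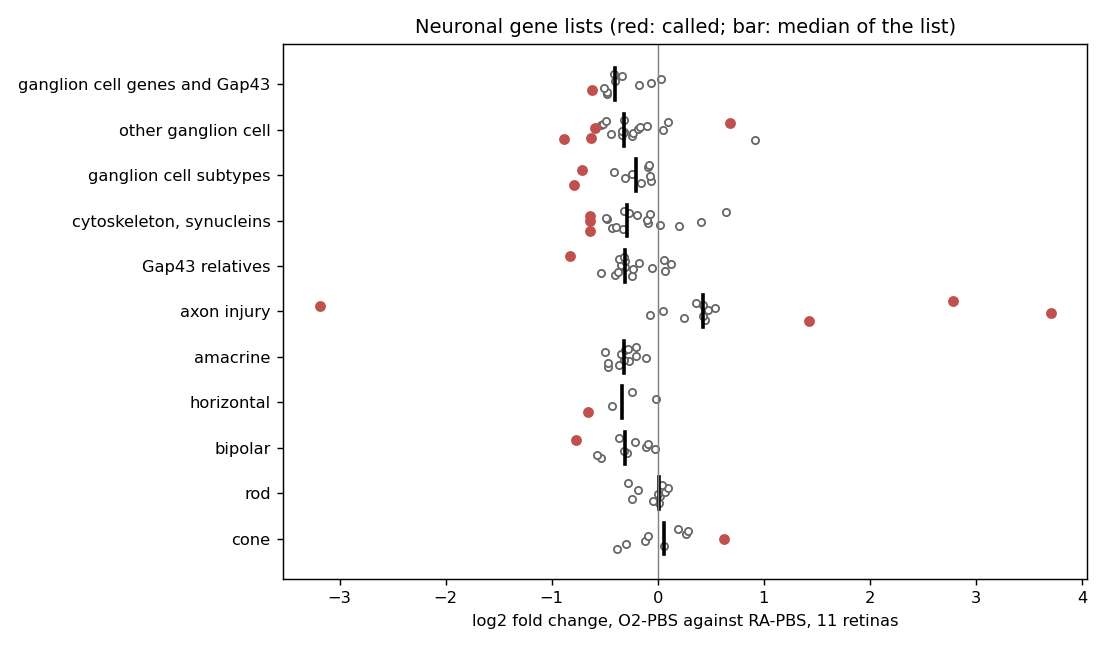
Log2 fold change in O2-PBS against RA-PBS (x axis, 11 retinas) of every tested gene of 11 lists (y axis). Red circles were called, open circles were not, and the bar is the list's median. Medians of ganglion, amacrine, horizontal and bipolar cell lists lie between -0.41 and -0.20, those of rods and cones at 0.0074 and 0.06, and that of axon injury genes at 0.43.

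Axon injury genes had mostly higher values. Of 13 tested, 11 were higher in O2-PBS (median 0.43), with 3 called higher (4.09% of all genes) and 1 lower (2.18%). The 4 calls became 2 without O2-PBS animal 5, with limma voom or with the Y-linked covariate. The endopeptidase gene Ecel1, induced in injured neurons, measured 0, 0.106, 0.610 and 0.467 CPM in RA-PBS, 3.38, 3.87, 5.88 and 2.57 CPM in O2-PBS, and 1.48, 2.36 and 2.13 CPM in O2-IC100 animals 9, 11 and 12. It rose by 3.71 on the log2 scale in O2-PBS (SE 0.558, edgeR adjusted p = 0.00159) and by 2.73 in O2-IC100 against RA-PBS (SE 0.591, adjusted p = 0.0567). With 0 CPM in RA-PBS animal 1 and few counts in the group, the size of this fitted change depends on the prior count. The injury transcription factor Atf3 measured 2.86 to 5.19 CPM in RA-PBS and 7.34 to 17.6 CPM in O2-PBS (1.43, SE 0.284, adjusted p = 0.00809). The cytokine Lif, also made by glia, was at 2.79 (SE 0.738, adjusted p = 0.0344), and O2-PBS animal 5 had 10.0 CPM against 1.04 to 1.71 CPM in the other 3. The heat shock gene Hspb1 fell by 3.19 (SE 0.852, adjusted p = 0.0565), and its 2.81, 30.7, 107 and 54.3 CPM in RA-PBS ran with the lens genes, at 10.0, 12481, 45247 and 14324 CPM.

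Markers of the other inner retinal neurons gave a reference. All 12 amacrine genes were lower in O2-PBS (median -0.32) and none was called. Calbindin, Calb1, was the 1 of 4 horizontal cell genes called, at -0.66 (edgeR adjusted p = 0.0219), and Vsx1 the 1 of 10 bipolar genes, at -0.77 (adjusted p = 0.00333). Rod and cone lists had medians of 0.0074 and 0.06. Of 8 genes of Müller cells, the main glia of the retina, 7 were lower and 2 were called, with a median of -0.50. The median of the 10 members, -0.41, lay between those of the Müller cell and the other neuron lists. The horizontal and bipolar medians were -0.34 and -0.30, and no test of the difference between lists was made. The 11 reactive glia genes, which Müller cells and astrocytes raise under stress, were all higher, and 7 were called. Of all tested genes, 51.2% were lower in O2-PBS, 2.18% were called lower and 4.09% were called higher.

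In O2-IC100 against O2-PBS, edgeR on 11 retinas called 0 genes of the ganglion cell, subtype, cytoskeleton, growth cone and axon injury lists. DESeq2 on these retinas called 1 ganglion cell, 1 cytoskeleton and 2 axon injury genes. With no filter on low counts, or with a minimum of 1 CPM in 3 retinas, edgeR called 1 cytoskeleton gene. The fit of only the 2 groups called 1 ganglion cell, 1 subtype, 1 cytoskeleton and 2 axon injury genes. Leaving out 1 RA-PBS retina in turn gave at most 1, 1, 2, 0 and 2 called genes in the 5 lists. Chrna6 stood at 0.63 (SE 0.172, edgeR adjusted p = 0.120) and the vesicular glutamate transporter of ganglion cells, Slc17a6, at 0.50 (SE 0.124, adjusted p = 0.102). Atf3 stood at -1.01 (SE 0.304, adjusted p = 0.150) and Ecel1 at -0.97 (SE 0.495, adjusted p = 0.290). In O2-IC100 against RA-PBS, Chrnb3 (-0.67), Spp1 (-0.65) and the axon transport genes Kif5a (-0.68) and Map1a (-0.74) were called lower, where 0.617% of all genes were. The ganglion cell and subtype lists each had 0 calls without RA-PBS animal 1, without any single O2-PBS animal from 6 to 8 or O2-IC100 animal, with library size scaling and with only the 2 groups, and the ganglion cell list also had 0 without RA-PBS animal 2. Without RA-PBS animal 4 they had 4 and 2. The 2 cytoskeleton calls became 0 without O2-IC100 animal 12 or with the length and GC correction, and 1 without RA-PBS animal 2, O2-PBS animals 6, 7 or 8, or O2-IC100 animals 9 or 11, each in turn, or with only the 2 groups. They became 4 without RA-PBS animal 4 or with the Y-linked covariate. Ecel1, above, was the axon injury call, and that list had 0 without RA-PBS animal 2 or any single O2-IC100 animal and with only the 2 groups, and 3 without RA-PBS animal 4. Kif5a, the kinesin that carries neurofilaments, measured 274 to 331 CPM in RA-PBS, 210 to 252 CPM in O2-PBS and 180 to 195 CPM in the 3 O2-IC100 retinas, the order of Nefh. With all 12 retinas, edgeR called 0 genes of these 5 lists in any comparison. DESeq2 on 12 retinas called 3 axon injury genes and 1 cytoskeleton gene in O2-PBS against RA-PBS, 1 cytoskeleton gene in O2-IC100 against O2-PBS, and 1 subtype and 1 cytoskeleton gene in O2-IC100 against RA-PBS.

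Patterns across the 11 retinas were compared by the root mean square difference of scaled log2 CPM, over 15148 genes with a mean of at least 1 CPM. Among the members, Nefl was most like Thy1 (0.259 SD), Sncg most like Gap43 (0.358 SD) and Nefm most like Nefh (0.456 SD). Pou4f2 and Nefh were least alike, at 1.69 SD. The genes nearest to Nefl were Nhlh2 (0.158 SD), a neuronal helix-loop-helix factor, Klhl8 (0.194 SD) and Necab1 (0.217 SD), nearer than any member. Gap43 was followed by Uchl3 (0.181 SD), Rnf14 (0.265 SD) and Rab6a (0.266 SD). Rbpms had no close neighbour, the nearest being Prrt2 at 0.528 SD.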

How the data were processed

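Retinal RNA of 12 mice was sequenced after poly(A) selection, 1 library per animal. The authors deposited estimated counts per gene, made with Kallisto on the GRCm39 transcriptome (release 104) and summed with tximport, not scaled to depth. The strand setting and versions are not given in the sources used here. Gene identifiers were given symbols through a reference table (35374 of 36131 matched).

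Counts were rounded and tested with edgeR 4.0.16 in R 4.3.3 (TMM, filterByExpr, robust quasi-likelihood F-test), with the 3 groups in 1 fit of 11 retinas and Benjamini-Hochberg adjustment over all 16688 tested genes. Animal 10 of O2-IC100 was left out of this fit and restored in an alternative. A gene was called at a fold change of at least 1.5, p under 0.05 and adjusted p under 0.1. Named genes were all 10 members and, of each other list, at most 4 examples per comparison, called genes first and then those with the largest change in O2-PBS against RA-PBS. Further genes (Ina, Prph, Slc17a6, Kif5a and Map1a) and the list genes given in the O2-IC100 comparisons were named after their values were seen. Members, lists and tests were chosen with earlier results of these data known. The lists share some genes, so their counts are not independent. Tubb3 and Stmn2 are in the ganglion cell and cytoskeleton lists, Isl1 in the ganglion cell and bipolar lists, and Lif in the axon injury and reactive glia lists.

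Totals of 14907143 to 19146287 counts give each member at least 62.0 counts in the 11 retinas. Animal 10, with 24438082 counts, had 23 for Pou4f3 and 44 for Pou4f2. Each library is 1 animal, so p-values measure the spread between animals. Alternatives used DESeq2 1.42.0, limma 3.58.1 (voom), other scalings and filters, 2 groups at a time, a covariate of Y-linked expression, each retina left out, and a correction for length and GC content (GENCODE vM21, 98.9% of tested genes). The code was tested on simulated data. GRCm38 sequences served only for lengths and printed sequences. A gene of the cytoskeleton list and some sequences are not reported here.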

Additional observations from a re-analysis of the deposited data

Results flagged for a closer look

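In each group of 4 retinas, the gap of the lowest or highest retina to its neighbour was divided by the group's range, on the log2 scale, and compared with Dixon's critical value at the 95% level over 30 sets of gene and group. Chance flags about 1 in 20 such sets. O2-IC100 animal 10, the lens-rich retina, was the lowest of its group for Nefl (0.975), Nefm (0.921), Nefh (0.962), Thy1 (0.963), Pou4f1 (0.883), Pou4f3 (0.865) and Gap43 (0.860). Lens genes took 57.7% of its counts. Its rod genes summed to 11808 CPM, against 39497 to 47533 CPM in the other 11 retinas. Its Müller cell genes were mixed, with a sum of 8601 CPM against 3366 to 5892 CPM. Dkk3 at 3622, Apoe at 2574 and Rlbp1 at 1033 CPM were above all other retinas. Glul, Slc1a3, Aqp4, Kcnj10 and Car2 were below all other retinas. The part of lens tissue in these low values was not tested. O2-PBS animal 6 was the lowest of its group for Thy1 (0.921), at 152 CPM, and for Gap43 (0.8646), at 21.1 CPM. RA-PBS animal 3, with 45247 CPM of lens genes, was the lowest for Pou4f1 (0.930), at 27.9 CPM.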

How the results depend on the processing

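Of the members' fold changes under all alternatives, 670 kept their direction and their side of the thresholds, 38 changed sign, 9 were no longer called and 3 were newly called. In O2-PBS against RA-PBS, 1 member was called, against 4 with no minimum fold, 2 with the length and GC correction (added after seeing the data), and 0 with all 12 retinas (edgeR and DESeq2), with upper quartile scaling or with library size only. Leaving out 1 retina gave 0 to 2, with 0 without RA-PBS animal 1 or 4 and 2 without animal 2. In O2-IC100 against RA-PBS, 1 member was called, against 2 with no minimum fold and 0 with all 12 retinas (edgeR and DESeq2) or with only the 2 groups. In O2-IC100 against O2-PBS, leaving out 1 retina gave 0 to 1 called, the 1 being Gap43 without RA-PBS animal 4.

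With all 12 retinas, log2 fold changes in O2-IC100 against O2-PBS changed sign for Nefl (-0.041 with edgeR, -0.036 with DESeq2), Nefm (-0.26, -0.25), Thy1 (-0.11, -0.11) and Pou4f1 (-0.036, -0.019). In O2-IC100 against RA-PBS they did so for Sncg (-0.20, -0.19) and Gap43 (-0.16, -0.15). Values near 0 in the same comparison also changed sign. Sncg had -0.013 with DESeq2, -0.014 with RLE size factors, -0.0035 with no filter, -0.0081 with a minimum of 1 CPM in 3 retinas, -0.0065 with only the 2 groups and -0.022 with the length and GC correction. Pou4f1 had 0.015 with upper quartile scaling, 0.054 with library size only, 0.018 with the Y-linked covariate and 0.011 with the length and GC correction. Rbpms in O2-PBS against RA-PBS had -0.049 with that correction. Leaving out 1 retina moved Rbpms from -0.026 to 0.0903 and Pou4f2 from -0.24 to 0.10 in O2-PBS against RA-PBS. In O2-IC100 against RA-PBS it moved Sncg from -0.14 to 0.14, Pou4f1 from -0.085 to 0.024, Pou4f3 from -0.31 to 0.057 and Gap43 from -0.032 to 0.25. The cause was not tested.

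Over all genes, edgeR called 1046, 158 and 261 in O2-PBS against RA-PBS, O2-IC100 against O2-PBS and O2-IC100 against RA-PBS. With all 12 retinas it called 133, 0 and 0, and DESeq2 called 407, 112 and 279. DESeq2 on 11 retinas called 394 and 561 in the last 2 comparisons, fits of only 2 groups 789 and 18, and the Y-linked covariate 39 and 409. Leaving out 1 retina gave 784 to 1343 in the first comparison, 0 (without animal 9, 11 or 12) to 432 (without animal 4) in the second, and 21 (without animal 12) to 925 (without animal 4) in the third. No paired analysis was possible because the animal numbers run from 1 to 12 and no group shares a number with another. Low counts limit Pou4f3 and Pou4f2 most.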
